A study of Mus musculus with 9 samples.

Results

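The Notch receptors, their ligands and their direct targets were examined as 10 genes: the receptors Notch1, Notch2, Notch3 and Notch4, the ligands Jag1, Jag2, Dll1 and Dll4, and the target genes Hes1 and Hey1. They were found by their gene name on the array and held 14 probes printed as 32 spots, of 41174 probes and 43379 spots in all. The array carried 27671 named genes or transcripts. Prostate cells were taken straight from BL6 mice and sorted by flow cytometry, after a lineage-negative gate that the design text names. One population carried CD117, Sca-1, CD133 and CD44 on its surface (3 arrays, which the labels call stem cells), and the other lacked all 4 proteins (6 arrays, called non-stem cells). They are called marker-positive and marker-negative here. No genetic change, treatment or age is given, and it is not stated whether each array holds a different animal. The p-values therefore describe variation among these 9 arrays, and this variation may be technical.

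Notch receptors are single-pass membrane proteins that are activated by Jagged or Delta-like ligands on a neighbouring cell. Ligand pulling exposes the receptor to cleavage by ADAM proteases and then by gamma-secretase, and the released intracellular domain enters the nucleus, joins RBPJ and Mastermind proteins and switches on repressor genes of the Hes and Hey families. In the prostate, Notch signalling is known for its part in epithelial development and in the balance of basal and luminal cells, and outside the epithelium it acts in blood vessels, where Dll4, Jag1, Notch1, Notch4 and Hey1 are used by endothelial cells and Notch3 by the muscle cells around them.

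Each array carried amplified RNA of 1 sorted sample in the Cy5 channel and a pooled mouse reference RNA in the Cy3 channel, and every level below is a log2 ratio of sample over reference. Levels of different probes are not comparable, but the same probe can be compared across arrays. A difference is the mean of the marker-positive arrays minus the mean of the marker-negative arrays, and a gene was called when its adjusted p (limma, Benjamini-Hochberg over all tested probes) was under 0.05. An array detected between 45.5% and 69.5% of its probes, meaning that the scanner software marked the Cy5 signal as well above background. Marker-positive replicate 3 stood apart: over the tested probes its log2 ratios correlated at 0.609 and 0.582 with those of marker-positive replicates 1 and 2, which correlated at 0.923 with each other, and it had the lowest share of probes above background. Its correlations with marker-negative replicates 4 and 6, 0.677 and 0.676, were higher than with either marker-positive array. It was the only array on its slide, so slide and sample cannot be told apart for it. It was not above background for Notch1 probe 1, Jag2, Dll1, Dll4, Hes1 and Hey1, but was for Notch2, Notch3, Notch4 and the brighter Jag1 probe. Of the genes for the sorted proteins, Ly6a (Sca-1), Kit (CD117) and Cd44 were higher in the marker-positive cells by 3.93, 3.45 and 2.06, with adjusted p of 0.0132, 0.046 and 0.0166 (limma). Prom1, which encodes CD133, differed by -0.44 with an adjusted p of 0.765, so its RNA did not follow the label.

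All 10 genes were detected on enough arrays to be tested, through 13 of the 14 probes. Jag1 and Notch4 were higher in the marker-positive cells, by 2.44 and 2.65 on the log2 scale (5.42-fold and 6.28-fold), and no gene of the 10 was called lower. Over all 19851 genes tested, 3.24% were called in either direction, 1.57% higher and 1.67% lower. By probe, 2 of the 13 tested were called, against 3.47% of all probes. The difference was positive for 9 of the 10 genes, with a median of 1.29, while over all genes the median was -0.01 and 48.8% were positive. Before adjustment, 6 of the 10 genes had a p under 0.05, as had 19.6% of all genes. Hes1 was the 1 gene with a negative difference. In 3 genes, Jag1, Notch2 and Notch4, every marker-positive array lay above every marker-negative array, which was so for 5.14% of all genes tested, or 11.6% when either direction is counted. In none of the 10 did every marker-positive array lie below the others, as in 6.47% of all genes. In bulk RNA from sorted cells, a higher level from more cells of a type and a higher level from more RNA per cell cannot be told apart.

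**Figure D1:**
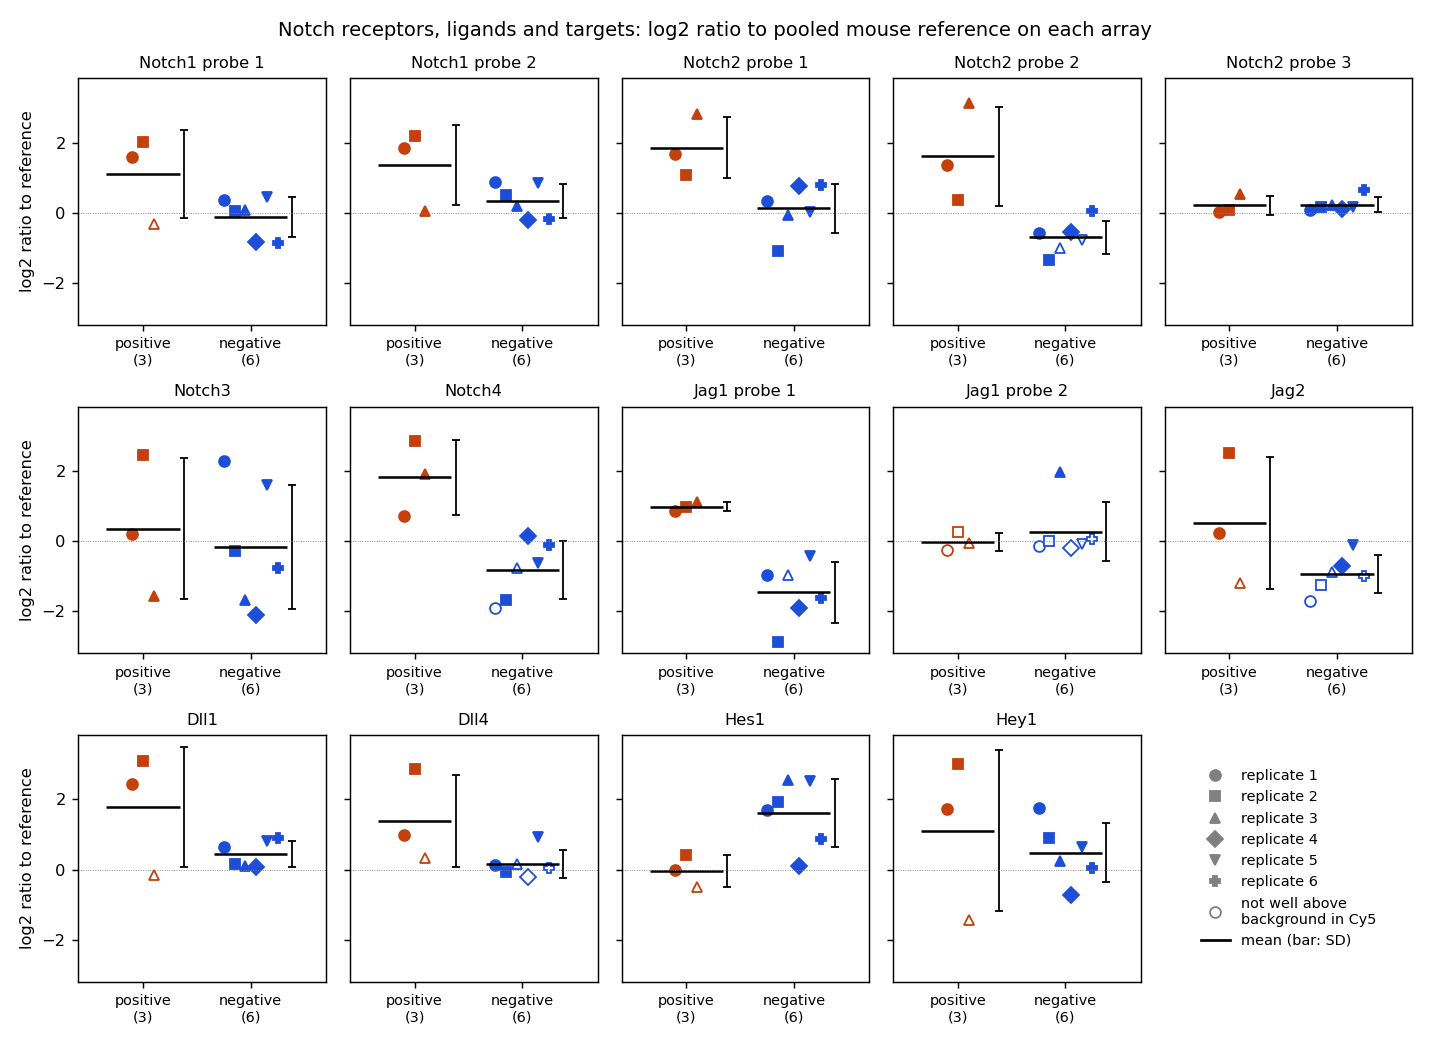
Log2 ratio to the pooled reference (vertical axis) for each of the 14 probes on the 3 marker-positive arrays (orange) and the 6 marker-negative arrays (blue). Symbols mark the replicate, open symbols are spots not well above background, horizontal lines are group means and bars are SD. The groups are apart for Jag1 probe 1, Notch4 and Notch2 probes 1 and 2, and marker-positive replicate 3 (triangle) is the lowest orange point for Notch1, Notch3, Jag2, Dll1, Dll4, Hes1 and Hey1.

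The promoters of the 3 genes whose groups were apart are shown because these genes were high on all 3 marker-positive arrays. Each is the 250 bases before the annotated start in RefSeq (GRCm38.p6), read 5′ to 3′ on the gene's strand, with GC boxes (GGGCGG on either strand) in capitals. Jag1 lies at chr2:137116521-137116770 on the minus strand, Notch4 at chr17:34564045-34564294 on the plus strand and Notch2 at chr3:98013288-98013537 on the plus strand.
Jag1: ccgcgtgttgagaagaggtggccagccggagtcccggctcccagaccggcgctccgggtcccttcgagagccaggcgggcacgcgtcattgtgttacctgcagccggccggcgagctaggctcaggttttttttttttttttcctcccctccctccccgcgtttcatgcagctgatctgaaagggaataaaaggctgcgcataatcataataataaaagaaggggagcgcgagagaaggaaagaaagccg
Notch4: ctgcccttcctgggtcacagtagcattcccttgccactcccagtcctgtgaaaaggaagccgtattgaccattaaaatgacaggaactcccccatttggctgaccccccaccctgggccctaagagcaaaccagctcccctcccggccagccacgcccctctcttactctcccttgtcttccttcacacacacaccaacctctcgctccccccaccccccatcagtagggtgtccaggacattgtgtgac
Notch2: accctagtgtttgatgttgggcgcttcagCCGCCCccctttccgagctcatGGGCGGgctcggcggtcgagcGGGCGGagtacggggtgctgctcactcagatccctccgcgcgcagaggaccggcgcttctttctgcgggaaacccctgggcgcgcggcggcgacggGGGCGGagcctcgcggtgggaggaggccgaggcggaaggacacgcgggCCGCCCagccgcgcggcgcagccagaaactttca

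The 3 windows differed in composition. Notch2 had a GC content of 72% with 34 CpG dinucleotides and 5 GC boxes, Jag1 had 57.2% with 20 CpG, and Notch4 had 58.4% with 4 CpG. Neither Jag1 nor Notch4 held a GC box, which 32.7% of the 32851 RefSeq promoter windows of this length did. Their median GC content was 52.4% with 6 CpG. The RBPJ motif GTGGGAA and its core TGGGAA, searched on both strands (the core lies within the longer motif), were in none of these 3 windows, and 5.42% and 21.6% of all windows held them. Entries were found for 8 of the 10 genes, and none of the 8 held either motif. The match is one of letters only.

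Among the ligands, Jag1, which encodes Jagged1, showed the most even marker-positive level. Its brighter probe lies at chr2:136822550-136822609 on the minus strand of the mm7 build that the array annotation uses. It read 0.85, 0.97 and 1.10 on marker-positive replicates 1, 2 and 3, against a lowest of -2.88, a median of -1.29 and a highest of -0.44 on the marker-negative arrays. All 3 marker-positive arrays were above the reference and all 6 marker-negative arrays below it, with no overlap. Marker-negative replicate 3 was not well above background for this probe. The means were 0.97 ± 0.13 (SD, n = 3) and -1.46 ± 0.87 (SD, n = 6), a difference of 2.44 (SE 0.50, 95% interval 1.32 to 3.55, limma adjusted p = 0.0317). Without marker-positive replicate 3 it was 2.37 (adjusted p = 0.0492), and within the 2 slides that held both groups it was 1.81 and 3.37, each with 1 marker-positive array. With slide as a fixed block the difference was 2.70 and the call was lost (limma adjusted p = 0.115). That fit takes its difference from those 2 slides alone, so marker-positive replicate 3 adds nothing to it. The call also ended when marker-positive replicate 1 (adjusted p = 0.112), marker-positive replicate 2 (0.11), marker-negative replicate 1 (0.0557) or marker-negative replicate 6 (0.058) was left out.

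A second Jag1 probe, at chr2:136824059-136824118, was well above background on marker-negative replicate 3 alone, at 1.96. Its means were -0.02 and 0.27, and it was not tested. The higher marker-negative mean rests on that array. The other marker-negative arrays read -0.18 to 0.05, beside -0.26 to 0.25 on the marker-positive arrays, all of them not well above background. The higher level of Jag1 in marker-positive cells therefore rests on 1 probe.

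Jag2, which encodes Jagged2, read 0.23, 2.51 and -1.21 on the marker-positive arrays and -1.71, -0.94 and -0.11 (lowest, median, highest) on the marker-negative arrays. Marker-positive replicates 1 and 2 lay above all marker-negative arrays and replicate 3 lay among them. The difference was 1.45 (SE 0.68, adjusted p = 0.275, limma) and did not pass the test. Without marker-positive replicate 3 it was 2.31 (adjusted p = 0.0515).

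Dll1, which encodes Delta-like 1, was printed as 10 spots per array at chr17:13604553-13604612. It read 2.43, 3.10 and -0.15 on the marker-positive arrays, against 0.09, 0.40 and 0.89 (lowest, median, highest) on the marker-negative arrays. Replicates 1 and 2 were far above every marker-negative array, and replicate 3 was below all 6. The difference was 1.35 (SE 0.61, adjusted p = 0.26, limma). Without replicate 3 it was 2.32 with an adjusted p of 0.00783. The repeated spots had an SD of 0.04 to 0.22 on an array, largest on replicate 3, where the probe was not well above background and its spots ranged from -0.40 to 0.21.

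Dll4, the Delta-like ligand of endothelial tip cells and arteries, read 0.98, 2.87 and 0.34 on the marker-positive arrays and -0.20, 0.09 and 0.92 on the marker-negative arrays (lowest, median, highest). Replicate 1 was just above the highest marker-negative array and replicate 2 was well above it, while replicate 3 lay among them. The difference of 1.23 (SE 0.48, adjusted p = 0.194, limma) did not pass, and without replicate 3 it was 1.76 (adjusted p = 0.0563). Only 2 marker-positive and 3 marker-negative arrays were well above background for it.

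Among the receptors, Notch4, best known in endothelial cells, had the largest difference of the 10 genes in this fit. Its probe lies at chr17:32669395-32669454 on the plus strand (mm7). It read 0.71, 2.84 and 1.92 on the marker-positive arrays and -1.91, -0.70 and 0.13 (lowest, median, highest) on the marker-negative arrays, with no overlap. The means were 1.83 ± 1.07 (SD, n = 3) and -0.82 ± 0.82 (SD, n = 6), a difference of 2.65 (SE 0.58, 95% interval 1.36 to 3.94, limma adjusted p = 0.0399). Marker-negative replicates 1 and 3 were not well above background for it. The difference was 2.60 without marker-positive replicate 3, where the adjusted p was 0.0596, and 2.62 and 3.61 within the 2 slides. A fixed slide block gave 3.18 (adjusted p = 0.111). The call was also lost on leaving out marker-positive replicate 2 (adjusted p = 0.155) or marker-negative replicate 1, 2, 3, 5 or 6 (0.0748, 0.0761, 0.0625, 0.0729 and 0.0505).

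Notch2 was measured by 3 probes on chromosome 3 that did not read alike. Probe 1 (chr3:98021215-98021274), which represents the gene in counts as the brightest, read 1.68, 1.08 and 2.81 on the marker-positive arrays and -1.09, 0.17 and 0.79 (lowest, median, highest) on the marker-negative arrays. Probe 2 (chr3:98020144-98020203) read 1.36, 0.35 and 3.13, against -1.35, -0.67 and 0.05, and was not well above background on marker-negative replicates 3 and 5. In both, the groups did not overlap and replicate 3 was the highest array. The differences were 1.73 (SE 0.49, adjusted p = 0.0899) and 2.32 (SE 0.54, adjusted p = 0.0504), so neither was called. Without replicate 3 they were 1.26 and 1.56. Probe 3 (chr3:98018506-98018565) read 0.01, 0.09 and 0.53, against 0.09, 0.16 and 0.66, and differed by -0.02 (SE 0.22, adjusted p = 0.972) although it was well above background on all 9 arrays. The probe with the lowest coordinate thus showed no separation, and both probes with higher coordinates did.

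Notch1, the receptor whose activation is studied most in epithelium and in T cells, had 2 adjoining probes at chr2:26466563-26466680 on the minus strand. Probe 1, printed as 10 spots, read 1.59, 2.02 and -0.31 on the marker-positive arrays and -0.86, 0.06 and 0.44 (lowest, median, highest) on the marker-negative arrays. Probe 2 read 1.84, 2.17 and 0.06, against -0.20, 0.33 and 0.88. In both, replicates 1 and 2 were above every marker-negative array and replicate 3 ranked below 4 of the 6 marker-negative arrays. The differences were 1.23 (SE 0.54, adjusted p = 0.247) and 1.03 (SE 0.49, adjusted p = 0.283), and without replicate 3 they were 1.94 (adjusted p = 0.0363) and 1.68 (adjusted p = 0.0364).

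Notch3, the receptor of vascular smooth muscle and pericytes, had the largest SD over the 9 arrays of the 10 genes, 1.74. It read 0.19, 2.45 and -1.56 on the marker-positive arrays and -2.10, -0.53 and 2.28 (lowest, median, highest) on the marker-negative arrays. The groups overlapped, and marker-negative replicates 1 and 5 were among the 3 highest arrays. The difference was 0.52 (SE 1.12, adjusted p = 0.855, limma). It was -2.09 within 1 slide and 3.64 within the other, so its direction differed between slides.

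The 2 target genes did not move together. Hes1, a basic helix-loop-helix repressor, read 0.00, 0.41 and -0.51 on the marker-positive arrays and 0.11, 1.82 and 2.56 (lowest, median, highest) on the marker-negative arrays. Marker-negative replicate 4, at 0.11, lay below marker-positive replicate 2, and the other 5 marker-negative arrays lay above all 3. The difference was -1.65 (SE 0.56, 95% interval -2.90 to -0.40, limma adjusted p = 0.144), and it was -1.71 and -0.61 within the 2 slides. Hey1, a related repressor of vascular and epithelial cells, read 1.74, 3.02 and -1.43, against -0.72, 0.44 and 1.77, with marker-positive replicate 3 the lowest of all 9 arrays. Its difference of 0.63 (SE 0.87, adjusted p = 0.757) was 1.90 without that array (adjusted p = 0.108).

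**Figure D2:**
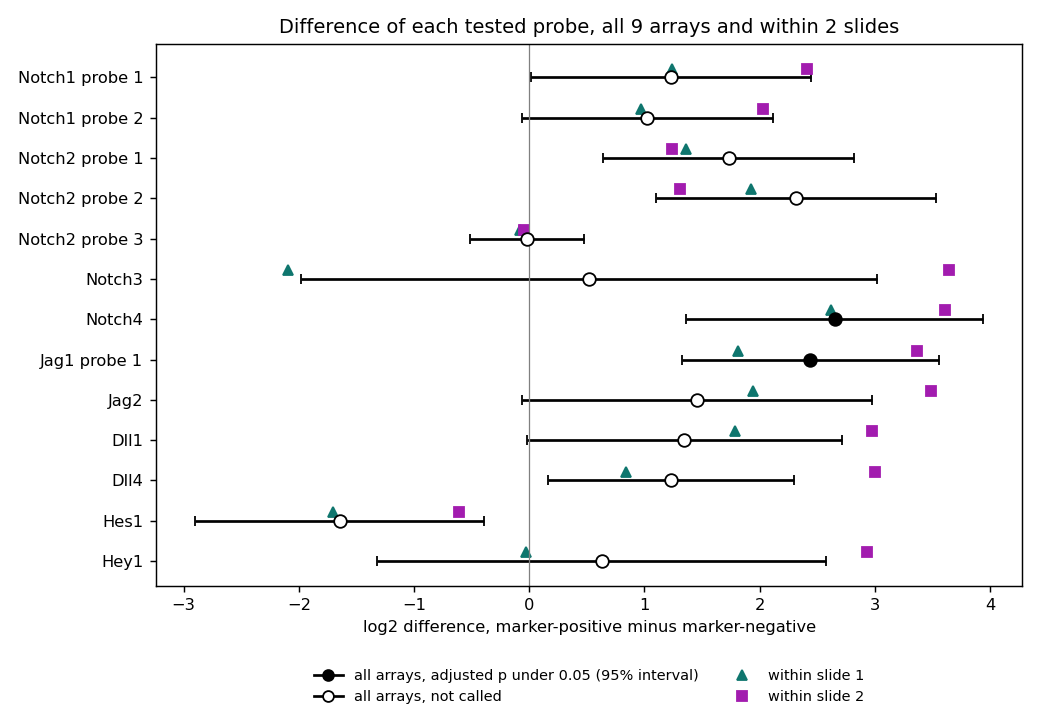
Difference of marker-positive minus marker-negative arrays on the log2 scale (horizontal axis) for the 13 tested probes, with 95% intervals. Filled circles are called, open circles are not, triangles are the difference within slide 1 and squares within slide 2. Jag1 and Notch4 are called, and the slide values lie on opposite sides of zero for Notch3 and Hey1.

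The arrays divided the 10 genes by how marker-positive replicate 3 behaved. Jag1, Notch2 and Notch4 were high on all 3 marker-positive arrays, whereas Notch1, Dll1, Dll4 and Jag2 were above all marker-negative arrays on replicates 1 and 2 alone. Hey1 was high on those 2 and on marker-negative replicate 1. After each gene was centred on its mean over the 9 arrays, Jag2 and Dll4 had the most alike patterns of any 2 members, with a root mean square difference of 0.44, followed by Notch1 and Dll4 at 0.50. Neither Jag2 nor Dll4 was well above background on marker-positive replicate 3 or marker-negative replicates 3 and 6, so part of their likeness is between dim readings. Notch2 and Jag1 differed by 0.82, and Notch4 and Hes1 were the farthest apart at 2.38. These arrays share their libraries, so the figures are descriptions.

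Outside the members, the genes closest to each pattern were found among 16078 named genes, for members whose SD over the arrays was at least 1. Ece1 (endothelin-converting enzyme) was the nearest to Jag1 at 0.33, followed by Lgals1 and Ust at 0.42 each. Ttyh3, Clec4n and St3gal4 were nearest to Notch2 at 0.33, 0.35 and 0.36, and Nuak1, Bst1 and Kcnq1 to Notch4 at 0.56, 0.62 and 0.64. Rnf165, Jazf1 and Lrrn2 were nearest to Dll1 at 0.28, 0.29 and 0.35, and Rflnb, Fat4 and Tspan9 to Jag2 at 0.48, 0.49 and 0.50. Pcdh12, Higd1b and Mrvi1 were nearest to Notch3 at 0.47, 0.59 and 0.60. Galnt16, Lamb2 and Ehbp1 were nearest to Hey1 at 0.36, 0.39 and 0.41, and Sidt1, Cst11 and Ap1m2 to Hes1 at 0.31, 0.31 and 0.35. Notch1 and Dll4 varied less than the minimum SD.

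Marker lists of other cell types moved along with these genes. For 14 endothelial genes, marker-positive replicates 1, 2 and 3 had mean log2 ratios of 3.04, 4.56 and 0.49, and the mean ranged from 0.14 to 1.45 on the marker-negative arrays, with replicate 2 the highest and replicate 3 the lowest of the marker-positive arrays. The marker-positive arrays had this order for Notch1, Notch3, Jag2, Dll1, Dll4, Hes1 and Hey1, and in the basal, arterial and muscle lists as well. The luminal and secretory lists, whose genes mostly had negative differences, had the same order. Of the 14 endothelial genes, 2 were called, both higher, Vwf by 3.99 (limma adjusted p = 0.00843) and Ly6c1 by 3.63 (adjusted p = 0.0218). These 2 did not fall to the marker-negative level on replicate 3. Vwf read 3.52, 4.87 and 3.56, against a highest of 1.17, and Ly6c1 read 2.34, 3.22 and 0.55, against a highest of -0.18. Groups were apart for 3 of the 14 genes, all higher, beside 5.14% of all genes. The mean of 11 basal epithelial genes was 2.08, 2.69 and -0.05, against -0.15 to 1.63. Of these, 1 was called, Trp63 (the basal transcription factor p63), higher by 2.02 (limma adjusted p = 0.0446). Trp63 read 1.81, 2.85 and 0.75, against a highest of 0.43 on the marker-negative arrays, and was the 1 basal gene whose groups were apart. The difference was positive for 9 of the 11 and negative for 2, Krt15 (-0.64) and Krt5 (-0.006). The muscle and pericyte list of 12 genes was 0.44, 1.56 and -1.30, against -1.13 to 0.88, with none called. Its 2 highest marker-negative arrays, replicates 5 and 1, were also those highest for Notch3. The same 2 arrays were the highest marker-negative arrays for the endothelial and basal lists, so this match was not particular to the muscle list. Neither 7 arterial genes, at 1.05, 1.58 and 0.02 against -0.03 to 0.65, nor 9 fibroblast genes, at 0.87, 0.82 and -3.18 against -3.33 to -0.65, held a called gene. The part of these cells in the Notch values was not tested.

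Jag1, Notch2 and Notch4 were high on all 3 marker-positive arrays, as were the macrophage and mast cell lists, although the design text names a lineage-negative gate, whose antibodies are not given. Vwf and Ly6c1 of the endothelial list and Trp63 of the basal list likewise lay above every marker-negative array on all 3. The mast cell list was also above its mean on marker-negative replicate 3, by 0.92, where Jag1, Notch2 and Notch4 were below theirs (-0.32, -0.76 and -0.83). The mean of 12 macrophage genes was 4.43, 3.43 and 4.45, against 0.16 to 2.89, and 4 of them were called, all higher. Cd163 and Mrc1 of that list were undetected on all 6 marker-negative arrays and averaged 5.99 and 6.03 in the marker-positive cells. The mean of 9 mast cell genes was 4.01, 3.46 and 3.89, against 0.22 to 2.70, and 4 were called, all higher, led by Tpsb2 (2.45, adjusted p = 0.00268) and Fcer1a (3.81, adjusted p = 0.00342). Kit is both a mast cell gene of that list and the gene for a sorted protein. The lymphocyte list of 12 genes was lower in the marker-positive cells for 4 genes, among them Cd3d and Cd8a (-5.27 and -3.75, adjusted p of 0.0139 and 0.0151). Of the lists whose difference had the sign of Hes1, all 13 luminal genes had a negative difference and 1 was called, Ehf (-2.34, adjusted p = 0.0148). Of 6 secretory genes, 5 had a negative difference and 4 were called lower, led by Azgp1 (-2.27, adjusted p = 0.00424) and Msmb (-5.24, adjusted p = 0.00532). Their means were 2.55, 2.60 and 0.18 against 2.49 to 4.11, and 4.42, 4.52 and 3.88 against 5.73 to 6.62. The part of these lists in the Notch values was not tested.

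**Figure D3:**
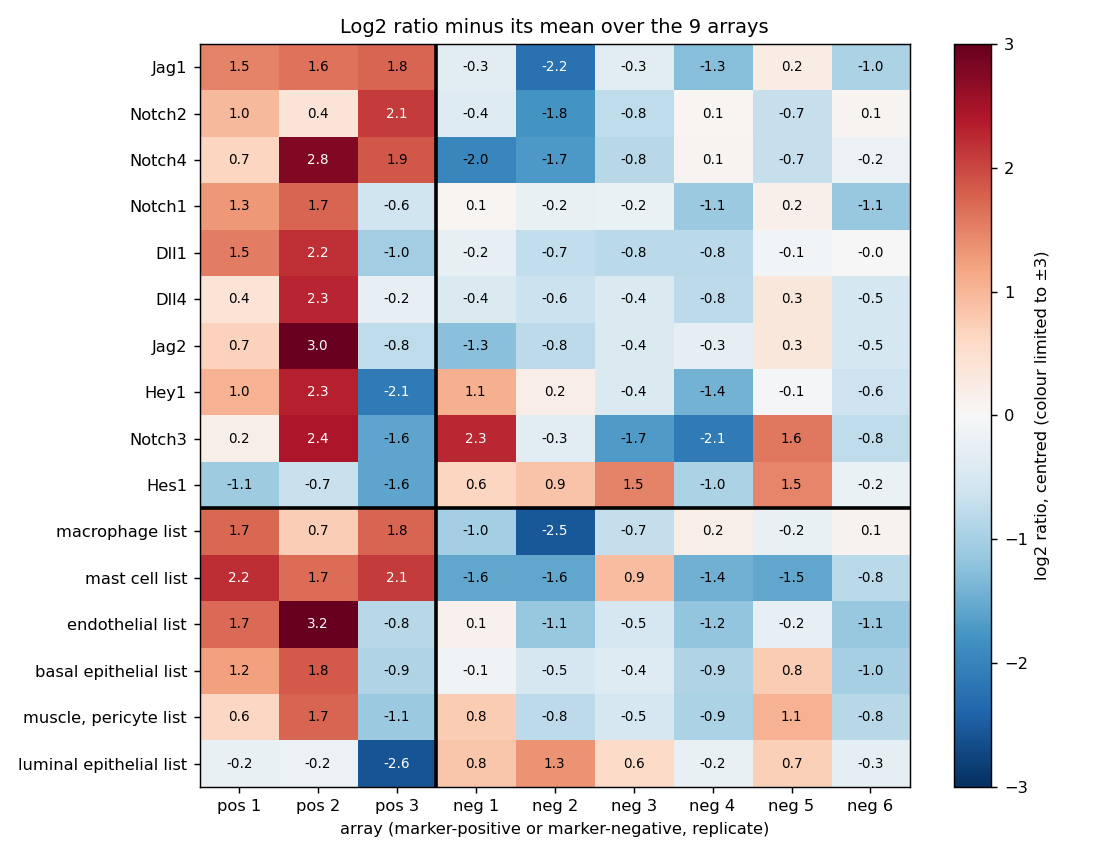
Log2 ratio minus its mean over the 9 arrays for the 10 genes (above the line) and the means of 6 marker lists (below), one column per array. Jag1, Notch2 and Notch4 and the macrophage and mast cell lists are above their mean on all 3 marker-positive arrays. On marker-positive replicate 3, Notch1, Notch3, Dll1, Dll4, Jag2, Hes1 and Hey1 and the endothelial, basal, muscle and luminal lists are below it. Hes1 and the luminal list are below it on all 3 marker-positive arrays.

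Of 55 other genes of the pathway, 54 were on the array and 51 were tested. Counted by the brightest tested probe of each gene, Dner and Dtx2 were higher in the marker-positive cells and none was called lower, which is 3.92% called against 3.24% of all genes. Counted over all 76 tested probes of these genes, 2 were higher and 2 were lower, beside 3.47% of all probes called in either direction. The 2 lower ones were second probes of Mib1 and Sox9. By the brightest probe, the median difference of the 51 genes was 0.04. Dner, a membrane protein related to the Delta ligands, read 5.82, 5.92 and 3.04 against a range of -0.49 to 2.85, and differed by 4.13 (SE 0.94, adjusted p = 0.0455, limma). A second Dner probe differed by 3.33 with an adjusted p of 0.0811. Dtx2, a Deltex ubiquitin ligase that acts on Notch, read 1.60, 0.32 and 1.10 against -0.78 to 0.07, and differed by 1.50 (SE 0.32, adjusted p = 0.0374, limma). Both calls were marginal. Dner was not called without marker-positive replicate 1 (3.69, adjusted p = 0.184) or 2 (3.64, 0.176), or without marker-negative replicate 3, 4, 5 or 6 (3.88 to 4.10, 0.0654 to 0.0856). Dtx2 was not called without marker-positive replicate 1 (1.20, adjusted p = 0.167) or 3 (1.45, 0.0541), or without marker-negative replicate 1, 2, 3, 4 or 6 (1.44 to 1.54, 0.0548 to 0.0842). With slide as a fixed block the adjusted p was 0.0856 for Dner and 0.208 for Dtx2.

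The lower probes of Mib1 and Sox9 were singled out after their values were seen. Mib1, a ubiquitin ligase that drives the endocytosis of Notch ligands, read 0.50, 0.24 and -1.62 on its dimmer probe, against 1.92 to 4.24 on the marker-negative arrays, with no overlap. That probe differed by -3.08 (SE 0.62, adjusted p = 0.0298, limma), while the brighter Mib1 probe differed by -0.17 (adjusted p = 0.873). Sox9, a transcription factor of epithelial progenitors that is also a Notch target, read 0.29, -0.29 and 0.22 on one probe, against 1.01 to 3.56, again with no overlap. That probe differed by -2.12 (SE 0.49, adjusted p = 0.0475, limma), and the other 2 Sox9 probes differed by -0.26 and -0.64 (adjusted p of 0.844 and 0.749). The Mib1 call was lost without marker-positive replicate 1 or 2 (adjusted p of 0.0659 and 0.0767) or marker-negative replicate 1 or 5 (0.0647 and 0.0633). The Sox9 call was lost when any marker-positive array (0.0605 to 0.183) or marker-negative replicate 1, 2, 3 or 6 (0.0661 to 0.0899) was left out. A fixed slide block gave -2.08 for Mib1 and -1.78 for Sox9, with adjusted p of 0.254 and 0.152.

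By role, and by the brightest tested probe of each gene, none of the 10 cleavage genes was called. Psen2, a catalytic subunit of gamma-secretase, had all 3 marker-positive arrays below all 6 others (difference -0.75, adjusted p = 0.076, limma), and Furin, which cleaves Notch in the secretory path, differed by 0.71 (adjusted p = 0.186). None of 4 glycosyltransferases was called, with the smallest adjusted p for Pofut1 and Poglut1, at 0.419 and 0.54. Dner was the called gene of 3 other ligands, and Dlk2 and Dlk1 differed by 0.20 and -0.11. Of 11 endocytosis and turnover genes, Dtx2 was called and Numbl, a Numb-like inhibitor, differed by 0.74 (adjusted p = 0.16). Mib1 of this group was called lower on its dimmer probe alone. None of 11 genes of the nuclear complex was called. For Maml1, the Mastermind coactivator, and Ep300, the acetyltransferase it recruits, all 3 marker-positive arrays lay above every marker-negative array. Their group means differed by 0.89 (limma adjusted p = 0.0884) and 0.71 (adjusted p = 0.148). None of 12 other targets was called, and Ccnd1 and Hes6 differed by 0.67 and -0.69 (adjusted p of 0.209 and 0.26). A second Hes6 probe differed by -2.12 (adjusted p = 0.14), and Sox9 of this group was called lower on 1 of its 3 probes. Lfng, Dll3 and Hey2 were on the array but not on enough arrays above background to be tested.

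**Figure D4:**
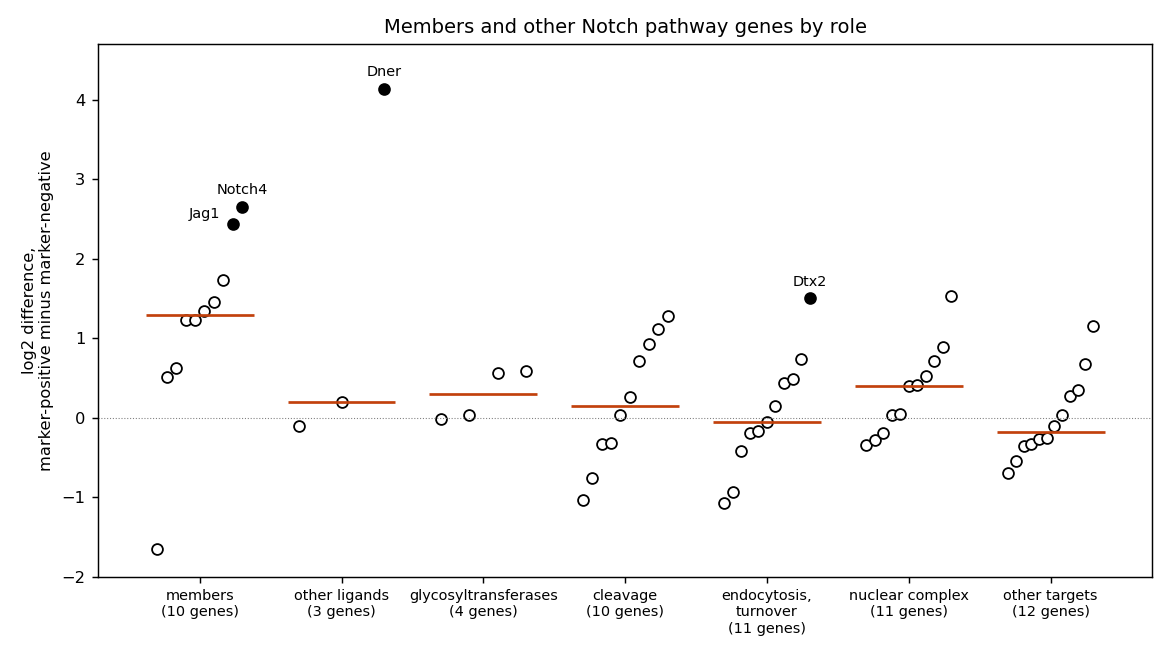
Difference of marker-positive minus marker-negative arrays on the log2 scale for the 10 members and 51 other pathway genes, in columns by role. Filled points are called and named, open points are not called, and the orange line is the median of each column. The members' median is 1.29 and the medians of the 6 other roles lie between -0.18 and 0.40.

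The authors' deposited table gives its own fold of marker-positive over marker-negative cells for each spot, and its log2 column carries the opposite sign. In the authors' deposited table, Jag1 probe 1 was 5.43-fold higher (adjusted p = 0.015) and Notch4 6.29-fold higher (adjusted p = 0.054). The 10 Notch1 spots of probe 1 ranged from 2.04-fold to 2.46-fold in the authors' deposited table, 9 of them with an adjusted p under 0.05. The authors' deposited table also gave Notch2 probes 1 and 2 as 3.28-fold and 4.99-fold higher (adjusted p of 0.00615 and 0.0268) and Hes1 as lower, with a signed fold of -3.14 (adjusted p = 0.0303). The folds of the authors' deposited table lie close to the differences given here, while its adjusted p called Notch1, Notch2 and Hes1, which the fit here did not, and left Notch4 just above 0.05.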

How the data were processed

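RNA from 9 sorted samples was amplified and hybridised on 2-colour Agilent arrays with the sample in Cy5 and a pooled mouse reference in Cy3, per the labels. Spot intensity values were extracted by the authors with version 10.7 of Agilent's Feature Extraction, as the submitters' processing notes give it (10.7.3.1, per the file headers). The authors' deposited comparison table holds log2 differences, p-values and a signed fold, a score that is negative where the ratio is below 1. Its log2 sign is opposite to its fold in all 43379 entries.

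From the mean and background intensity values, normexp (offset 50) and within-array loess were applied, spots of a probe were averaged, and the 28334 probes that the scanner software marked as detected in Cy5 on 3 arrays or more were fitted with limma 3.58.1 in R 4.3.3 (lmFit, eBayes with trend and robust, two-sided, Benjamini-Hochberg, threshold 0.05) over 3 marker-positive and 6 marker-negative arrays. The tested probe with the highest mean intensity stood for a gene. On simulated data for this comparison with 28334 probes, 12% of changes of 1 and 54% of changes of 2 on the log2 scale were recovered, with 0 of the wrong sign. The arrays lay on 5 slides, 2 of which held both groups. These 2 held marker-positive replicates 1 and 2 and marker-negative replicates 1, 2 and 4. A fit with slide as a fixed block takes the group difference from these arrays alone. The number of arrays limits the precision.

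The members and gene lists were chosen with earlier results of these data known. Named were all members, called pathway genes, the 2 pathway or marker genes per list with the smallest adjusted p, the 3 genes nearest each member in pattern, and the genes of the sorted proteins. Alternatives changed the slide term, array weights, probe rule, variance model, normalization, background correction or detection filter, or left out 1 array.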

Additional observations from a re-analysis of the deposited data

Results flagged for a closer look

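In 3 of 23 sets of array values examined, the highest marker-negative array lay far from the other 5, by Dixon's test at the 95% level, which by chance marks about 5% of such sets. Marker-negative replicate 6 read 0.66 on Notch2 probe 3, and the next array read 0.22. Marker-negative replicate 3 read 1.96 on the dimmer Jag1 probe, where the next array read 0.05 and no other array was well above background. Marker-negative replicate 5 read 0.92 for Dll4, and the next array read 0.15.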

How the results depend on the processing

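The Jag1 difference was positive in all 20 alternatives with a test and called in 15, with values of 2.13 to 3.40 and adjusted p of 0.0057 to 0.115. The Notch4 difference was positive in all 20 and called in 9, at 2.14 to 3.83 and adjusted p of 0.0113 to 0.155. Notch2 probe 2, not called in the main fit, was positive in all 20 and called in 6, at 1.56 to 3.47 (limma adjusted p of 0.0142 to 0.205). Notch2 probe 1, which stands for the gene in the counts, was positive in all 21 and called in 1. Against 2 members called, 1 was called with processed signals, with median centring and with no detection filter (Jag1 each time), 0 with detection required in both channels on all arrays, where 3 members were tested, 0 with slide as a fixed block, and 8 with array weights, of which Hes1 was lower (-1.49). Leaving out 1 array gave 0 to 3 members. Of the other pathway genes, 1 was called (Dtx2) with processed signals, both channels or the mean of a gene's probes, 0 with median centring, no detection filter or the fixed block, 14 with array weights, and 0 to 5 on leaving out 1 array. Over all genes, 643 were called, 226 with median centring (141 higher), 4301 with array weights, 148 with the fixed block (128 higher), and 191 to 1429 on leaving out 1 array, the highest without marker-positive replicate 3 and the lowest without marker-positive replicate 1. Processed signals gave 221 higher and 362 lower, against 312 and 331. Without 1 array at a time, members called were 0 without marker-positive replicate 2 or marker-negative replicate 1 or 6.

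The sign of Notch2 probe 3 turned with no background subtraction (0.010), processed signals (0.034) and Cy5 alone (0.057), and its range on leaving out 1 array was -0.18 to 0.075. Hey1 turned with processed signals (-0.49), with a range of -0.33 to 1.90 on leaving out 1 array, and Notch3 ranged from -0.53 to 1.48. The causes were not tested. Replicate numbers follow sample order and pair no arrays, so slide was the block that could be fitted. The dimmer Jag1 probe, Jag2 and Dll4 were well above background on 1, 4 and 5 of the 9 arrays, which limits what their ratios can show.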
